A study of Mus musculus with 9 samples.

Results

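Apoe, Clec7a, Cst7, Fabp5, Igf1, Itgax and Spp1 are genes of the disease-associated microglia signature, and they were taken by their symbols from a panel table, 7 of its 757 genes. The question was whether their transcripts differed between microglia of mice after a transient ischemic attack (TIA) and of mice after sham surgery, and how far the samples of a group differed among themselves.

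The mice were males of the wild-type strain C57BL6/J, 10 to 12 weeks old. In the TIA groups a filament closed the middle cerebral artery for 5 min, and in the Sham group the same surgery was done without the filament. Microglia were collected 24 h (TIA 24h) or 3 d (TIA 3d) after the TIA, and each of the 3 groups held 3 samples. Sorted cells came from 3 mice per condition, and the labels do not tie a mouse to a sample, so p values measure the spread between these samples. Brains of all groups were treated alike before the sort: perfusion with heparin in saline, the transcription inhibitor actinomycin D, papain digestion and a Percoll gradient. The sort kept cells with CD45 and CD11b that excluded the dye 7-AAD. That gate also admits border macrophages, monocytes and neutrophils, so the sorted cells are microglia-like by gate and not by a microglia-only marker.

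The panel was the nCounter mouse neuroinflammation code set, in which each transcript captures a probe with its own colour barcode and barcodes are counted one molecule at a time, with no amplification. Levels are given as deposited, on the log2 scale of counts normalized to housekeeping probes, and the whole counts behind them were recovered from the values. Total recovered counts ran from 6560 to 25582 in Sham, from 7248 to 10929 in TIA 24h and from 29200 to 62883 in TIA 3d. The TIA 3d totals lay above those of both other groups, with an exact two-sided permutation p of 0.1 in each comparison, the smallest that 3 against 3 samples allow. Depth and the TIA 3d condition therefore cannot be told apart. Sham replicate 3 stood apart, with no gene above 32 counts and a correlation of 0.37 with Sham replicate 1 across genes, against 0.74 between Sham replicates 1 and 2.

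The label was checked against 6 microglia markers, P2ry12, Cx3cr1, Tmem119, Csf1r, Itgam and Ptprc. Itgam and Ptprc encode CD11b and CD45, the proteins of the gate, so they cannot tell microglia from the other cells it admits. Cx3cr1, the fractalkine receptor, had 1118, 296 and 29 counts in Sham replicates 1 to 3, 96, 45 and 20 in TIA 24h, and 1355, 973 and 644 in TIA 3d. The summed level of the 6 markers ran from 7.57 to 11.58 (log2) in Sham, from 7.15 to 8.73 in TIA 24h and from 10.80 to 11.28 in TIA 3d. All 3 TIA 24h samples and Sham replicate 3 thus carried little of these transcripts. In them P2ry12 had 38, 27 and 12 counts (TIA 24h) and 13 (Sham replicate 3), and Tmem119 had 26, 15 and 9, and 10. In bulk RNA, fewer microglia and less RNA per microglia cannot be told apart.

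Microglia near amyloid plaques, dying neurons or damaged myelin lower their resting genes and take up a programme of lipid handling, phagocytosis and lysosomal breakdown. An early step of this change is known to go on without Trem2, and the full programme needs Trem2 and its adaptor Tyrobp. Apoe and Fabp5 serve lipid transport in that programme, Clec7a and Itgax are receptors at the cell surface, Cst7 restrains lysosomal proteases, and Igf1 and Spp1 are secreted.

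None of the 7 genes passed the threshold of 0.05 on the adjusted p in any test by limma (moderated F test and contrasts, Benjamini-Hochberg adjustment over all 757 genes). Across the 3 groups the count was 0 of 7, beside 0% of all genes. Before adjustment, Apoe alone lay under 0.05 in that test, at 0.0202. Set against Sham, the 24 h samples gave 0 of 7 beside 0% of all genes, and the 3 d samples also gave 0 of 7 beside 0%. Between the time points 0 of 7 passed beside 19.2% of all genes. At 24 h, 0 of the 7 had groups that did not overlap with Sham, where 9.78% of all genes did. At 3 d it was 1 of the 7, Itgax, where 24.2% of all genes did. Between the time points it was 2 of the 7, Apoe and Itgax, where 48.3% of all genes did. The median difference of the 7 genes was 0.14 (log2) for 24 h minus Sham, -0.029 for 3 d minus Sham and -0.17 for 3 d minus 24 h, and that of all genes was 0.15, -0.0095 and -0.25.

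**Figure D1:**
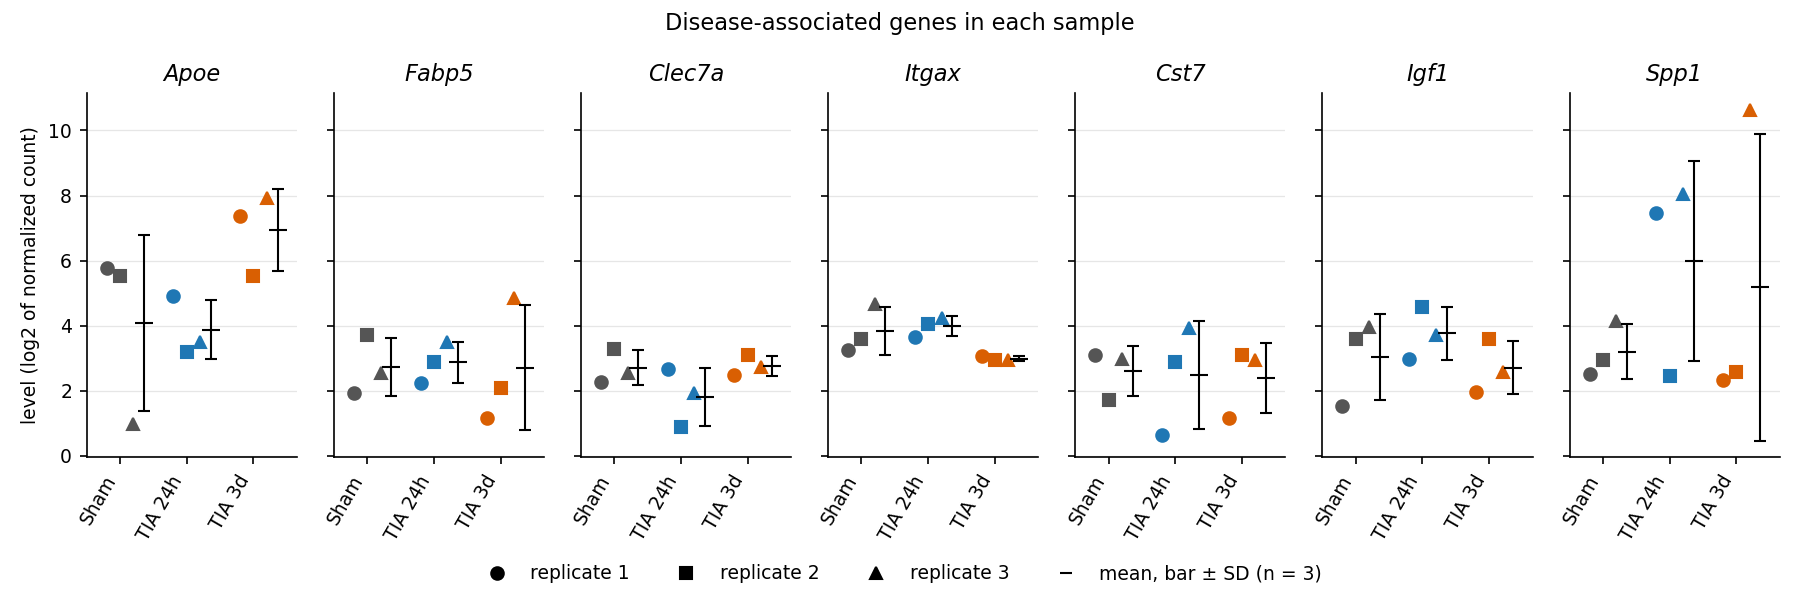
Level of each gene (log2 of normalized count, y axis) in the 9 samples, with the groups on the x axis, a marker shape per replicate and, beside the points, the group mean with a bar of ± 1 SD (n = 3). Spp1 stood at 7.45 and 8.05 in TIA 24h replicates 1 and 3 and at 10.63 in TIA 3d replicate 3, and between 2.34 and 4.14 in the other samples.

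Apoe encodes apolipoprotein E, the main lipid carrier of the brain. Its level was 5.77, 5.52 and 0.97 in Sham replicates 1 to 3, 4.90, 3.21 and 3.51 in TIA 24h, and 7.36, 5.53 and 7.93 in TIA 3d. The 3 TIA 3d samples lay above all 3 TIA 24h samples, while TIA 3d replicate 2 lay below Sham replicate 1. The recovered counts were 57, 42 and 1 in Sham, 19, 5 and 6 in TIA 24h, and 293, 54 and 446 in TIA 3d. The single count in Sham replicate 3 has an exact 95% Poisson interval of 0.0253 to 5.57, which covers counting error only, as do the other counting intervals below.

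The mean Apoe level was 4.09 ± 2.70 (SD, n = 3) in Sham, 3.87 ± 0.91 in TIA 24h and 6.94 ± 1.26 in TIA 3d. TIA 3d minus TIA 24h came to 3.07 (SE 1.05, 95% interval 0.80 to 5.33, adjusted p = 0.0551 by limma), and all 3 TIA 3d samples lay above the TIA 24h mean. TIA 3d minus Sham came to 2.85 (adjusted p = 0.167 by limma), and TIA 24h minus Sham to -0.22 (adjusted p = 0.973 by limma). The first of these differences lay close to the threshold, and its call turned on single samples: the adjusted p by limma was 0.00578 without Sham replicate 3, 0.0302 without Sham replicate 1 and 0.0474 without TIA 3d replicate 2. TIA 3d minus Sham was 3.69 and passed without Sham replicate 1 (adjusted p = 0.0402 by limma), and was 1.30 without Sham replicate 3, the sample with 1 count (adjusted p = 0.448 by limma). The Apoe counts followed the lane totals in nearly the same order, from 1 in the lane with the lowest total to 446 in the lane with the highest. With the log2 lane total in the fit, TIA 3d minus TIA 24h was -2.92 (adjusted p = 0.922 by limma), so the direction turned.

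Fabp5 encodes a protein that carries fatty acids inside the cell. Its level was 1.94, 3.71 and 2.56 in Sham, 2.24, 2.89 and 3.51 in TIA 24h, and 1.17, 2.09 and 4.86 in TIA 3d. TIA 3d held both the lowest and the highest of the 9 values, so its range enclosed both other groups. The counts were 4, 12 and 3 in Sham, 3, 4 and 6 in TIA 24h, and 4, 5 and 53 in TIA 3d. TIA 3d replicate 3, with 53 counts (95% Poisson interval 39.7 to 69.3), was the only sample above 12. The group means were 2.74 ± 0.90 (SD, n = 3), 2.88 ± 0.63 and 2.71 ± 1.92, and the 3 differences lay between -0.17 and 0.14 with SE 0.79 (adjusted p from 0.891 to 0.985 by limma). The 95% intervals of these differences reached from -1.87 to 1.84.

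Clec7a encodes dectin-1, a receptor for fungal glucans that signals through Syk. Its level was 2.26, 3.30 and 2.56 in Sham, 2.66, 0.89 and 1.92 in TIA 24h, and 2.49, 3.09 and 2.72 in TIA 3d. The low values were those of TIA 24h replicates 2 and 3, which rest on 1 and 2 counts, and every pair of groups overlapped. No sample had more than 12 counts. TIA 24h minus Sham came to -0.88 (SE 0.49, adjusted p = 0.722 by limma), TIA 3d minus TIA 24h to 0.95 (adjusted p = 0.170), and TIA 3d minus Sham to 0.061 (adjusted p = 0.948).

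Itgax encodes the integrin chain CD11c, found on dendritic cells and on a subset of microglia. Its level was 3.26, 3.59 and 4.67 in Sham, 3.66, 4.06 and 4.24 in TIA 24h, and 3.07, 2.94 and 2.94 in TIA 3d. All 3 TIA 3d samples lay below every sample of the other groups. TIA 3d minus TIA 24h came to -1.0 (SE 0.44, adjusted p = 0.108 by limma), and TIA 3d minus Sham to -0.86 (adjusted p = 0.280 by limma), with 0 of 3 samples above the Sham mean in the second. The lower level at TIA 3d did not come with fewer counts. These were 10, 11 and 13 in Sham, 8, 9 and 10 in TIA 24h, and 15, 9 and 14 in TIA 3d, and they overlapped in both comparisons. A single count was worth up to 3.58-fold more in some lanes than in others after normalization, and least in the lanes of TIA 3d replicates 1 and 3. With lane totals as the scaling the difference between the time points was -1.95 and passed (adjusted p = 0.0194 by limma), where the median of all genes was -1.19. With the log2 lane total as covariate it was 0.38, and TIA 3d minus Sham was 0.14, so both directions turned. After quantile normalization the time points overlapped. Across the lanes the Itgax count spanned 1.88-fold and the lane total 9.59-fold, and only 13 of the 757 genes had a narrower span of counts.

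Cst7 encodes cystatin F, an inhibitor of cathepsins in lysosomes. Its level was 3.11, 1.71 and 2.97 in Sham, 0.66, 2.89 and 3.92 in TIA 24h, and 1.17, 3.09 and 2.94 in TIA 3d. All groups overlapped, and in each group the counting intervals of the highest and the lowest sample overlapped. The counts were 9, 3 and 4, then 1, 4 and 8, then 4, 10 and 14. The means were 2.6 ± 0.77 (SD, n = 3), 2.49 ± 1.67 and 2.40 ± 1.07, and no difference between them exceeded 0.20 in size (SE 0.76, adjusted p from 0.897 to 0.987 by limma).

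Igf1 encodes insulin-like growth factor 1, a trophic factor for neurons and myelin-forming cells. Its level was 1.52, 3.59 and 3.97 in Sham, 2.98, 4.59 and 3.73 in TIA 24h, and 1.97, 3.58 and 2.59 in TIA 3d. Sham held both the lowest and the 2nd highest of the 9 values. The counts were 3, 11 and 8, then 5, 13 and 7, then 7, 14 and 11, with no order by depth. The level, in contrast, fell as the log2 lane total rose (r = -0.72). TIA 24h minus Sham came to 0.74 (SE 0.66, adjusted p = 0.783 by limma), TIA 3d minus Sham to -0.31 (adjusted p = 0.801), and TIA 3d minus TIA 24h to -1.05 (adjusted p = 0.25). In a fit of the recovered counts (limma voom) the last of these was -2.07 and passed (adjusted p = 0.0246), where the median of all genes was -1.30. With the log2 lane total as covariate it was 1.87 and did not pass, so the direction turned.

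Spp1 encodes osteopontin, a secreted phosphoprotein that binds CD44 and several integrins. Its level was 2.52, 2.93 and 4.14 in Sham, 7.45, 2.47 and 8.05 in TIA 24h, and 2.34, 2.58 and 10.63 in TIA 3d. High values stood in 2 of 3 TIA 24h samples and in 1 of 3 TIA 3d samples, in 0 of 3 Sham samples, and the remaining TIA samples lay below the Sham mean. The counts were 6, 7 and 9 in Sham, 111, 3 and 140 in TIA 24h, and 9, 7 and 2883 in TIA 3d.

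The counting error was small against these gaps. The 95% Poisson interval was 91.3 to 134 and 118 to 165 for the high TIA 24h samples and 0.619 to 8.77 for the low one, and it was 2779 to 2990 for TIA 3d replicate 3. The group means were 3.20 ± 0.84 (SD, n = 3) in Sham, 5.99 ± 3.06 in TIA 24h and 5.18 ± 4.72 in TIA 3d. TIA 24h minus Sham was 2.79 (SE 1.84, 95% interval -1.18 to 6.76, adjusted p = 0.723 by limma), and TIA 3d minus Sham was 1.98 (95% interval -1.99 to 5.95, adjusted p = 0.534 by limma). The first of these was 4.55 without TIA 24h replicate 2 (adjusted p = 0.787 by limma). Without TIA 3d replicate 3 the difference from Sham was -0.74, so its direction rested on that sample. TIA 3d minus TIA 24h came to -0.81 (adjusted p = 0.769 by limma), and to 0.22 without TIA 24h replicate 3. It was -3.53 without TIA 3d replicate 3 and 0.61 without TIA 3d replicate 1.

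Over 9 oligodendrocyte markers, among them the myelin genes Mog, Mag, Mobp and Cnp, the summed level was 8.68, 8.18 and 8.56 (log2) in TIA 24h replicates 1 to 3, lowest in the sample with low Spp1. Single markers did not share that order: counts there were 66, 25 and 71 for Cnp, but 71, 52 and 37 for Mobp and 20, 31 and 19 for Sox10. The sum ran from 6.83 to 8.64 in Sham, highest in replicate 2, which had 7 counts of Spp1, and from 6.43 to 6.99 in TIA 3d, lowest in replicate 3, which had 2883. The gate on CD45 and CD11b should leave oligodendrocytes out, and the part of their transcripts in the TIA 24h values of Spp1 was not tested.

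**Figure D2:**
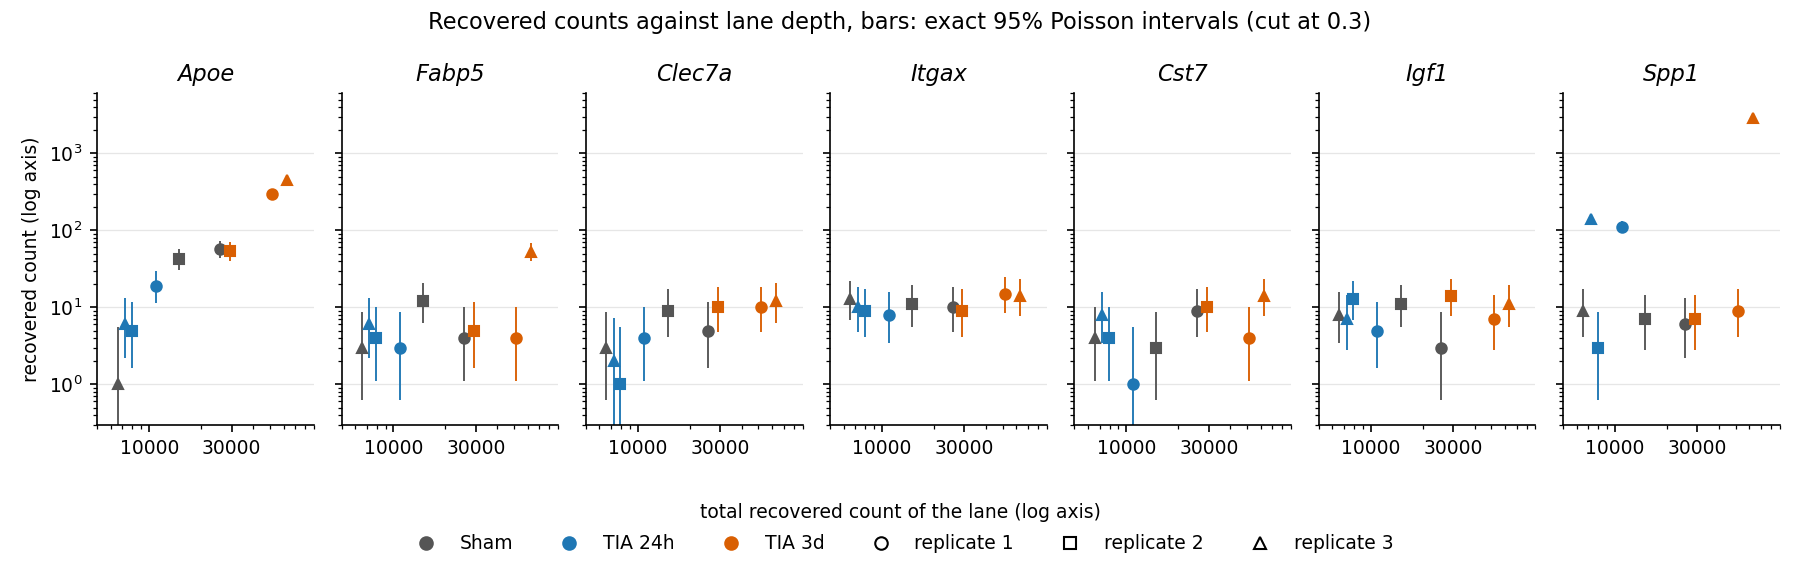
Recovered count of each gene (y axis, log scale) against the total recovered count of the lane (x axis, log scale), with a colour per group, a shape per replicate and exact 95% Poisson intervals as bars. Apoe counts climbed with the lane total from 1 to 446, Itgax counts stayed between 8 and 15, and Spp1 had 3 samples above 100 at low and at high totals.

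No count above 15 was found in any lane for 4 of the 7 genes, namely Clec7a, Cst7, Igf1 and Itgax, which was true of 174 of all 757 genes. No negative control probe is in the table, and a lane's background had to be judged from other probes. Lymphocyte genes, most of which the sort should leave out, offer a view of low counts. The lymphocyte markers Cd3d, Cd3e, Cd3g, Cd8a, Ms4a1, Nkg7 and Ncr1 had between 1 and 27 counts over the 9 lanes, with a median of 8. The highest of them stood at 10 to 27 counts, depending on the lane. Clec7a lay above the highest of these probes in 0 of 9 lanes, Cst7, Fabp5 and Igf1 in 1 each, Itgax in 2, Spp1 in 3 and Apoe in 6. Nkg7 and Ncr1 mark natural killer cells, which can carry CD11b and pass the gate, and against the other 5 probes alone each gene lay above in as many lanes. In the remaining lanes a level of theirs cannot be set apart from background. For Apoe those lanes were Sham replicate 3 and TIA 24h replicates 2 and 3, so the sizes of its differences rest in part on such values. Probes differ in efficiency, so no order between genes is read from their counts.

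The promoters of Spp1 and Apoe are shown because these 2 genes had the largest spread between samples of a group among the 7. Each run covers the 250 bases before a RefSeq start site (GRCm38.p6), written 5′ to 3′ on the strand of the gene, with GAGGAA, the core recognised by the myeloid factor PU.1, in capitals.
Spp1, chr5:104434861-104435110, plus strand: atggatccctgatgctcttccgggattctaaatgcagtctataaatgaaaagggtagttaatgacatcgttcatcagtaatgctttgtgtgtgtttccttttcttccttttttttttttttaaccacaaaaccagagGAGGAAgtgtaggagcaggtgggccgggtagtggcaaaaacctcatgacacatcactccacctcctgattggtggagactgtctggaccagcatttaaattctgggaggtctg
Apoe, chr7:19699189-19699438, minus strand: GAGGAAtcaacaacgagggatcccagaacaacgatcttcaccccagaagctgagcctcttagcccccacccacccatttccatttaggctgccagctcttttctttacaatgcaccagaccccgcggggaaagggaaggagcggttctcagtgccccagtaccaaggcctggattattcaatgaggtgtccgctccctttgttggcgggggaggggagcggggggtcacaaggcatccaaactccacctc
The Spp1 run ends at the 5′ end of the gene, and the Apoe run ends at a start site 2122 bases inside the longest annotated gene. Windows of 300 bases, from 250 before to 50 after a start site, were on hand for 6 of the 7 genes, 10 windows in all, some of which overlap. GAGGAA on either strand occurred in 6 of the 10 windows, in at least 1 window each of Apoe, Clec7a, Igf1 and Spp1, and in 28.3% of 32851 mouse windows. It was in neither the window of the second Spp1 start site, 1081 bases inside the gene, nor the Apoe window whose start site lies 2689 bases inside. TGANTCA, the AP-1 element, occurred in 3 windows, those of Cst7, Igf1 and Itgax, and in 7.81% of mouse windows. CACGTG, an E-box, occurred in 0 of the 10 and in 7.15% of mouse windows. These matches are letters in a window and were not tested.

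The spread between samples of a group was summarised as the SD of the level pooled over the 3 groups. Spp1 had the largest of all 757 genes, 3.28, and Apoe the 4th largest, 1.80. Fabp5 followed at 1.28, Cst7 at 1.23 and Igf1 at 1.01, where 3.04%, 3.57% and 9.78% of all genes had a larger SD. Clec7a at 0.62 and Itgax at 0.46 lay near the median of all genes, 0.58. Single samples carried much of this: the SD was 2.01 for Spp1 (then 2nd largest) and 0.75 for Fabp5 without TIA 3d replicate 3, and 0.98 for Apoe (then 46th) and 0.22 for Itgax without Sham replicate 3. It was 0.90 for Cst7 (then 124th) without TIA 24h replicate 1 and 0.73 for Igf1 (then 178th) without Sham replicate 1. Of the 21 sets formed by a gene and a group, 5 had a highest and a lowest sample whose counting intervals were apart: Apoe in Sham and TIA 3d, Fabp5 in TIA 3d, and Spp1 in TIA 24h and TIA 3d. In these 5 sets the highest sample was Sham replicate 1 for Apoe, TIA 24h replicate 3 for Spp1, and TIA 3d replicate 3 for Apoe, Fabp5 and Spp1. In the other 16 sets the intervals of the highest and the lowest sample overlapped, and no order of samples is read from them.

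**Figure D3:**
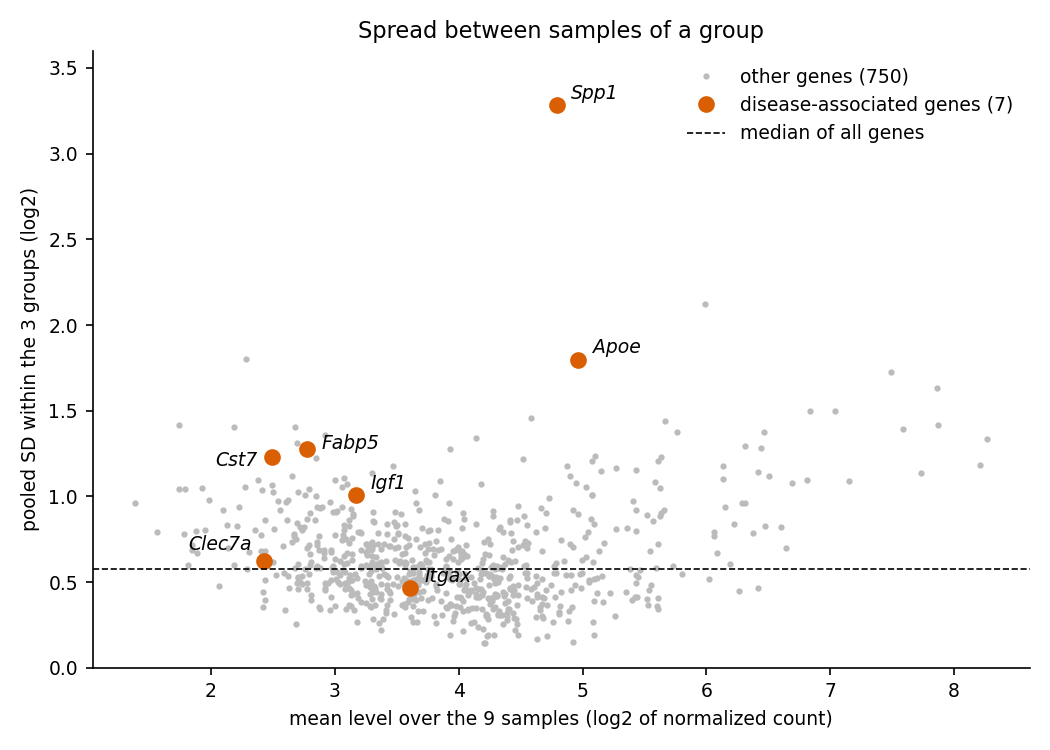
SD of the level pooled within the 3 groups (y axis, log2) against the mean level over the 9 samples (x axis, log2 of normalized count) for 757 genes, with the 7 genes in orange and the median of all genes as a dashed line. Spp1 had the largest value, 3.28, and Itgax, at 0.46, lay below the median of 0.58.

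TIA 3d replicate 3 was set against the mean of the other TIA 3d samples after its Spp1 value had been seen, so the following is a description. Spp1 stood 8.17 (log2) above that mean, with 2883 counts against 9 and 7, and Fabp5 3.23, with 53 counts against 4 and 5, ranks 1 and 2 of 757 genes. In the other TIA 3d samples neither gene lay above the lymphocyte probes of its lane, so both sizes rest on values that cannot be set apart from background. The next in rank were Lilrb4a, an inhibitory receptor of the same signature, at 2.84 with 307 counts against 89 and 13, and Csf1, the growth factor of microglia, at 2.44 with 174 counts against 43 and 15, where the 13 and the 15 also lay below the highest of those probes. Apoe ranked 19th at 1.49 and Cst7 82nd at 0.81. Clec7a, Igf1 and Itgax lay between -0.18 and -0.068, where the median of all genes was -0.071. TIA 24h replicate 2, treated the same way, stood lowest of all 757 genes for Spp1, at -5.28 from the mean of the other TIA 24h samples, on 3 counts, which also lay below the highest of those probes.

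For each of the 7 genes, the genes of the panel with the most similar levels over the 9 samples were listed by Pearson's r, as a description without a test. The ribosomal protein gene Rpl28 was most like Apoe (r = 0.98), followed by Ncor1 (r = 0.95), a corepressor. Levels of Apoe, Rpl28 and Ncor1 each followed the log2 lane total (r = 0.92, 0.91 and 0.91). Lilrb4a was most like Spp1 (r = 0.84), then Bola2 (r = 0.81). For Fabp5 it was Vim (r = 0.79), which encodes the filament protein vimentin and had 87 counts in TIA 3d replicate 3 and 20 to 33 in the other lanes, then Tgm2 (r = 0.78). The remaining pairs were Col6a3 and Fyn for Clec7a (0.83 and 0.81), Xcl1 and Pink1 for Cst7 (0.87 and 0.85), Setd1a and Ngfr for Igf1 (0.96 and 0.91), and Blk and Pilrb1 for Itgax (0.96 and 0.95). All levels of a lane share its scaling factor, so low genes of near constant count resemble each other: Blk had 17 to 33 counts and Pilrb1 6 to 15, beside 8 to 15 for Itgax.

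The intervals of the differences show what these samples could resolve. They were narrowest for Itgax and Clec7a and widest for Spp1, where the interval of TIA 3d minus TIA 24h ran from -4.78 to 3.16. The interval excluded 0 in 3 of the 21 comparisons, for Apoe at TIA 3d against both other groups and for Itgax at TIA 3d against TIA 24h, before adjustment over all genes, where it did in 22.4% of the 2271 comparisons of all genes.

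**Figure D4:**
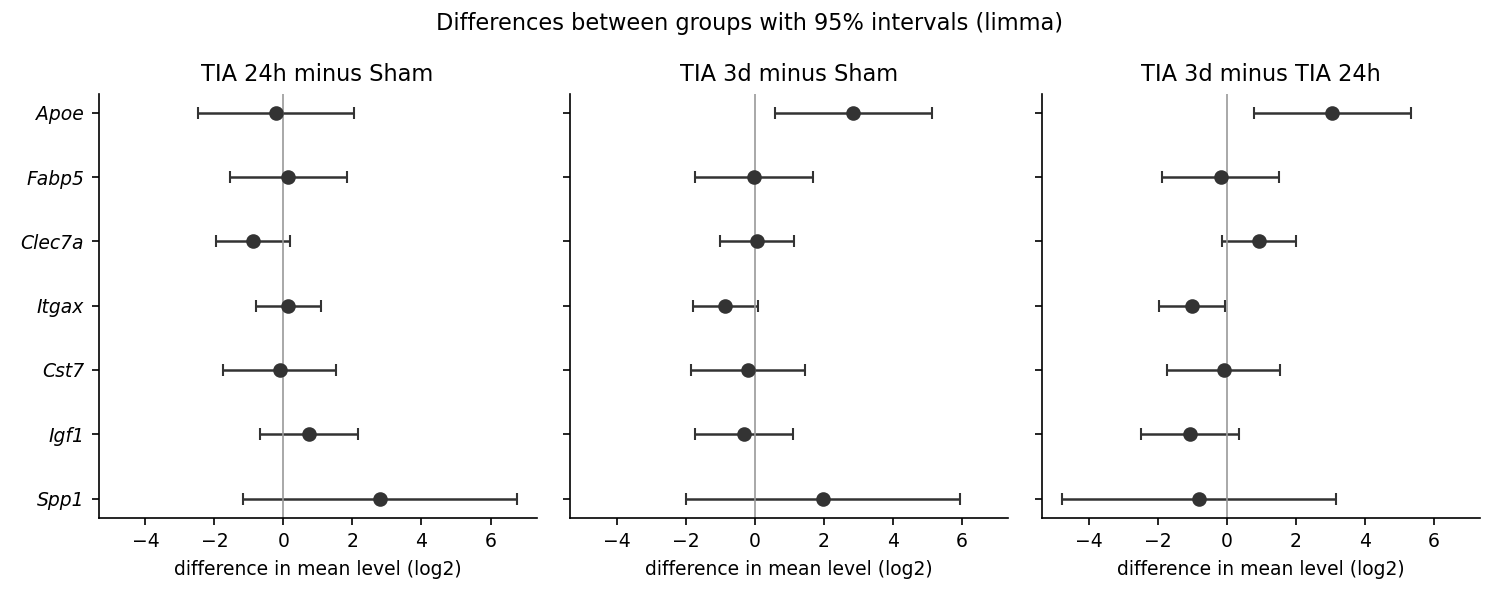
Difference in mean level (x axis, log2) of each of the 7 genes for TIA 24h minus Sham, TIA 3d minus Sham and TIA 3d minus TIA 24h, with limma's 95% intervals not adjusted for multiple tests. Apoe at TIA 3d, with 2.85 above Sham and 3.07 above TIA 24h, and Itgax, with -1.0 against TIA 24h, have intervals that leave out 0.

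Other genes of the same signature were read from a list of 42, of which 15 were on the panel. Of these, 0 passed against Sham at 24 h, 0 at 3 d, and 5 between the time points, all with the higher level at 3 d in the deposited scaling, beside 19.2% of all genes. Their median difference was 0.21, 1.31 and 1.16 in that order, where that of all genes was 0.15, -0.0095 and -0.25. The 5 genes were Trem2, its adaptor Tyrobp, the maturation marker Cd83 and the chemokines Ccl3 and Ccl4, while 0 of the 7 genes passed there.

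Trem2, the lipid-sensing receptor upstream of the signature, had a level of 7.13, 5.96 and 4.97 in Sham, 5.05, 4.79 and 4.24 in TIA 24h, and 7.47, 7.48 and 7.64 in TIA 3d. TIA 3d minus TIA 24h came to 2.84 (SE 0.51, adjusted p = 0.0229 by limma). Tyrobp differed by 3.12 (adjusted p = 0.0229), and Ccl3 by 2.6, Ccl4 by 1.88 and Cd83 by 1.74 (adjusted p = 0.0373, 0.0455 and 0.0249). Ccl4 lay above the lymphocyte probes in 1 of 3 TIA 24h lanes and Trem2 in 2 of 3, so the sizes of their differences rest in part on values that cannot be set apart from background. Axl, a receptor for the uptake of dying cells, stood at 3.83, 4.35 and 4.62 in TIA 24h and at 3.63, 3.68 and 4.18 in TIA 3d and did not pass (adjusted p = 0.5 by limma), nor did Csf1 (difference 0.53, adjusted p = 0.525). Trem2 and Tyrobp are also expressed by resting microglia, and the summed microglia markers given above stood higher in TIA 3d than in TIA 24h too.

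Genes for receptors, partners and pathways of the 7 genes came from a list of 43, of which 13 were on the panel. In the same order of comparisons 0, 0 and 7 passed, the 7 all with the higher level at 3 d in the deposited scaling, beside 19.2% of all genes. The median differences were -0.25, 1.00 and 1.75, and those of all genes 0.15, -0.0095 and -0.25. On the osteopontin side, the integrin chain Itgb5 differed by 3.44 between TIA 3d and TIA 24h (adjusted p = 0.0229 by limma). Itgav, its partner chain, differed by 1.03 and did not pass (adjusted p = 0.284). Cd44, the other main osteopontin receptor, had 3 to 12 counts in all lanes and a difference of -0.77 (adjusted p = 0.260). Igf1r, the receptor of Igf1, differed by 1.92 (adjusted p = 0.0385 by limma), on 1 to 3 counts in Sham and TIA 24h and 25, 8 and 17 counts in TIA 3d. It lay above the lymphocyte probes in 2 of 9 lanes, those of TIA 3d replicates 1 and 3, so the size of that difference rests on values that cannot be set apart from background. Igf2r, a receptor of the related factor IGF2, was lower at 3 d by value, with a difference of -1.23, and did not pass (adjusted p = 0.0604 by limma). Its groups did not overlap, which was true of 48.3% of all genes. Its counts were not fewer, at 9, 10 and 6 in TIA 24h and 8, 11 and 10 in TIA 3d. Igf2r lay above the lymphocyte probes in 0 of 9 lanes, so its difference also rests on values that cannot be set apart from background.

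The cathepsin gene Ctss and the legumain gene Lgmn, which encode lysosomal proteases of the kinds that cystatins hold in check, differed by 4.04 and 3.87 (adjusted p = 0.0232 and 0.0304 by limma). Itgam, the CD11b chain used in the sort and a sister of Itgax, differed by 2.20 (adjusted p = 0.0334). Plcg2 and Fcer1g, which carry signals from immune receptors, differed by 1.98 and 1.75 (adjusted p = 0.0373 and 0.0421). Plcg2 lay above the lymphocyte probes in 1 of 3 TIA 24h lanes, and Itgam and Itgb5 in 2 of 3, with the same limit on the sizes. The summed microglia markers, to which Itgam belongs, also ran higher in TIA 3d (10.80 to 11.28) than in TIA 24h (7.15 to 8.73). Levels of Ctss and Lgmn followed the log2 lane total (r = 0.97 and 0.96). The part of microglia content or of depth in the differences of the partner genes was not tested. Syk, through which Clec7a signals, differed by 0.96 and did not pass (adjusted p = 0.121). Leaving out any of TIA 24h replicates 2 and 3 and TIA 3d replicates 1 and 3 brought both counts to 0, as it did the count over all genes, and both were also 0 with the log2 lane total as a covariate. With lane totals as the scaling, 3 of the 15 passed with the higher level at 3 d and 1, Ch25h, with the lower, and of the 13 it was 3 with the higher and 3, Cd44, Icam2 and Igf2r, with the lower, beside 45.4% of all genes in either direction. In the voom fit of the recovered counts, 2 of the 15 passed with the higher level at 3 d and 2, Axl and Ch25h, with the lower, and of the 13 it was 3 and 3, the lower ones again Cd44, Icam2 and Igf2r, beside 50.9% of all genes. Without Sham replicate 1, 7 of the 15 and 5 of the 13 passed in the comparison of TIA 3d with Sham, beside 11.1% of all genes.

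**Figure D5:**
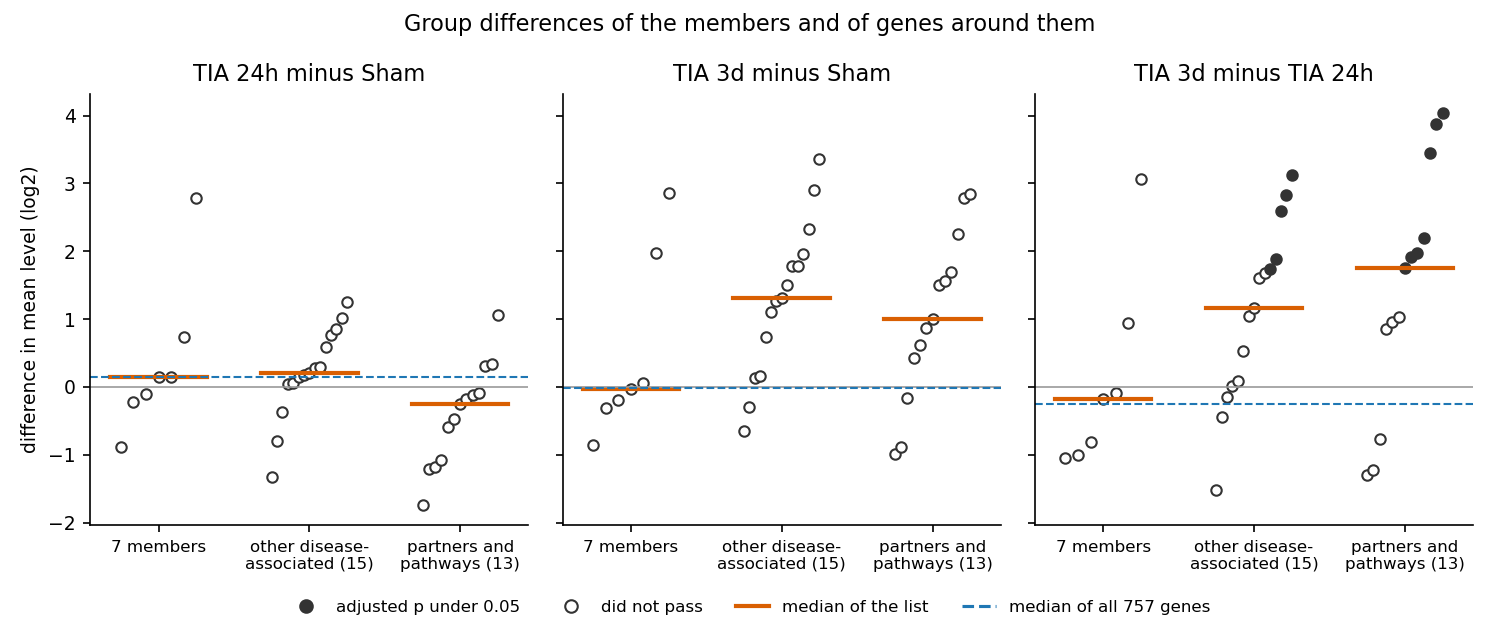
Difference in mean level (y axis, log2) for the 7 genes, 15 other disease-associated genes and 13 partner and pathway genes in the 3 comparisons, with filled points for an adjusted p under 0.05, an orange line for the median of each list and a dashed blue line for the median of all 757 genes. Filled points appear in TIA 3d minus TIA 24h for 5 of the 15 and 7 of the 13, and for 0 of the 7.

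Markers of other cell types that the gate could hold were few on the panel. Border macrophages were represented by Cd163 alone, 1 of 7 listed genes, at 11 to 33 counts, and monocytes by Ccr2, at 5 to 19 counts. Ly6g, which stood on the same list but marks neutrophils, had 10 to 18. None of 6 dendritic cell markers was measured, so Itgax could not be set beside them. Ccr2 had 15, 10 and 5 counts in Sham, 10, 11 and 14 in TIA 24h, and 12, 19 and 9 in TIA 3d, and Ly6g 11, 12 and 10, then 11, 11 and 10, then 18, 11 and 12. The part of such cells in the values of the 7 genes was not tested.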

How the data were processed

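Transcripts were counted by nCounter in 9 samples of sorted microglia-like cells, 3 per group, and groups were read from the sample titles. Per the labels and methods, the authors normalized counts to housekeeping probes chosen by geNorm in ROSALIND, and the deposited values are log2 of those normalized counts. The version of ROSALIND is not given in the sources used here, and genes below the highest negative control were excluded from the study's analysis, with no statement whether that holds for the deposited table. In each lane, 2 to the power of each value was a whole multiple of 1 step (within 0.01 for 100% of values), which gave back whole counts. No value was 0, and counts of 0 may have been raised to 1.

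Levels of all 757 genes were fitted in limma 3.58.1 (R 4.3.3) with a mean per group, with Benjamini-Hochberg adjustment over all genes and a threshold of 0.05. The study's own test, an ANOVA with a permutation-based false discovery rate, was not run. Code was tested on simulated data. The 7 genes, the lists and the settings were chosen with earlier results of these data known. Named were the 7 genes, the 2 most similar genes of each, and list genes past the threshold (at most 5 per list and comparison by smallest p), with Trem2, Tyrobp, Axl, Csf1, Cd44 and Igf1r in any case and Fcer1g, Syk, Igf2r, Itgav and the genes set beside single samples added after values were seen. Lpl, Cd9 and Itgb2 were on the list and not measured. Some marker genes of other cell types are not reported here and were left out of the marker sums. The labels do not say whether same-numbered samples share more than a number. With group means taken off, 5 of 9 same-numbered pairs correlated above 0.1, with r from -0.24 to 0.27. In the other pairs r ran from -0.37 to 0.31.

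Lists and windows used the RefSeq table of GRCm38.p6, where 750 symbols matched as given and 7 through older symbols. Alternatives were median centring, lane totals, quantile normalization, a filter at the 0.25 quantile, a pseudocount of 10, a replicate block, voom on recovered counts, an ordinary linear model, array weights, a trended robust prior, the lane total as covariate and leaving out each sample.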

Additional observations from a re-analysis of the deposited data

How the results depend on the processing

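Unless named here, differences and counts of the 7 genes kept their direction and their side of the threshold. Of 408 differences recomputed under alternatives, 62 turned in sign and 13 passed the threshold. The cause of a change was not tested unless named.

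Genes of the 7 past the threshold were 0 in each of the 4 tests. Across the 3 groups the count was 1 with lane total scaling (Itgax, beside 23.9% of all genes), 1 with voom (Itgax, beside 38.3%) and 1 with array weights (Apoe, beside 39.0%), and 0 to 1 when single samples were left out (0% to 18.0%). For TIA 3d against Sham it was 1 with array weights (Apoe, beside 23.0%) and 0 to 1 with samples left out (0% to 11.1%). Between the time points it was 1 with lane total scaling (Itgax, beside 45.4%), 1 with a pseudocount of 10 (Apoe, 19.4%), 1 with the replicate block (Apoe, adjusted p = 0.0484 by limma, 18.5%), 2 with voom (Igf1 and Itgax, both lower at 3 d, 50.9%), 3 with array weights (Apoe, Igf1 and Itgax, 41.5%) and 0 to 1 with samples left out (0% to 29.9%). The replicate block changed no other call of the 7. Groups of 24 h and Sham were apart for 1 gene, Clec7a, after quantile normalization, beside 9.25% of all genes. Itgax overlapped between the time points there. The filter on low values removed Clec7a, Cst7, Fabp5 and Igf1, so no value was had for them there.

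Of the 15 other signature genes, 2 passed for TIA 3d against Sham with the pseudocount (beside 0.793% of all genes), 2 with the trended robust prior (1.06%) and 7 with array weights (23.0%; main count 0), and 0 to 7 with samples left out. Between the time points (main count 5) it was 0 with quantile normalization, 0 with the ordinary model, 0 with the lane total as covariate, 8 with array weights and 0 to 8 with samples left out. Of the 13 partner genes, 6 passed for TIA 3d against Sham with array weights (beside 23.0% of all genes; main count 0) and 0 to 5 with samples left out. Between the time points (main count 7) it was 0, 0, 0, 11 and 0 to 9 under the same settings, where 0.925%, 0%, 0%, 41.5% and 0% to 29.9% of all genes passed.

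With the lane total as covariate the log2 differences that turned were, for 24 h minus Sham, Apoe 1.43, Igf1 -0.067 and Itgax -0.23. For 3 d minus Sham they were Apoe -1.48, Cst7 0.73, Igf1 1.80 and Itgax 0.14. For 3 d minus 24 h they were Apoe -2.92, Cst7 1.19, Igf1 1.87 and Itgax 0.38. With median centring the turned values were Fabp5 -0.041 and Itgax -0.037 for 24 h minus Sham, Fabp5 0.13 for 3 d minus Sham, and Cst7 0.25 and Fabp5 0.17 for 3 d minus 24 h. With quantile normalization they were Fabp5 -0.20 and Itgax -0.18 for 24 h minus Sham, and Cst7 0.20 and Fabp5 0.030 for 3 d minus 24 h. With lane total scaling they were Cst7 0.080 for 24 h minus Sham, Clec7a -0.70 for 3 d minus Sham and -0.0024 for 3 d minus 24 h. With voom they were Cst7 0.19, Clec7a -0.71 and Clec7a -0.37 in the same comparisons. These scalings moved the median of all genes, for 3 d minus 24 h to -1.19 with lane totals and to -1.30 with voom from -0.25. With the pseudocount they were Cst7 0.066 for 24 h minus Sham, Fabp5 0.14 for 3 d minus Sham and 0.11 for 3 d minus 24 h. With array weights they were Cst7 0.60 and Fabp5 -0.45 for 24 h minus Sham, and Clec7a -0.44 for 3 d minus Sham.

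When each sample was left out in turn, differences that crossed 0 for 24 h minus Sham ran from -1.77 to 0.63 for Apoe, from -0.83 to 0.81 for Cst7, from -0.26 to 0.63 for Fabp5, from -0.016 to 1.21 for Igf1 and from -0.15 to 0.56 for Itgax. For 3 d minus Sham they ran from -0.16 to 0.36 for Clec7a, from -0.64 to 0.42 for Cst7, from -1.11 to 0.74 for Fabp5, from -1.06 to 0.16 for Igf1 and from -0.74 to 3.40 for Spp1. For 3 d minus 24 h they ran from -1.0 to 0.63 for Cst7, from -1.25 to 0.60 for Fabp5 and from -3.53 to 0.61 for Spp1. Of the differences that did not cross 0, Apoe ran from 1.30 to 3.69 for 3 d minus Sham and from 2.57 to 3.78 for 3 d minus 24 h, Spp1 from 1.76 to 4.55 and Clec7a from -1.30 to -0.42 for 24 h minus Sham, Clec7a from 0.48 to 1.36 and Igf1 from -1.48 to -0.64 for 3 d minus 24 h, and Itgax from -1.15 to -0.44 for 3 d minus Sham and from -1.16 to -0.87 for 3 d minus 24 h. Counting error weighs on low counts: Clec7a, Cst7, Igf1 and Itgax had 1 to 15 in every lane, and the median was 4 for Fabp5 and 9 for Spp1.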
